A study of Mus musculus with 24 samples.

Results

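The nuclei described here are liver invariant natural killer T (LiNKT) cell nuclei in which no chromatin fragment was read at the genes of interleukin-10 (Il10) or interleukin-21 (Il21). They were selected on their own readout: a barcode of the single-nucleus multiome had to have at least 5000 fragments and none that overlapped a window of 35 kb around Il10 (chr1:130990000-131025000, GRCm38) or of 62 kb around Il21 (chr3:37222000-37284000). Of 10456 barcodes with at least 5000 fragments, 2878 met this rule. Below they are called closed nuclei, which says only that no fragment was read in either window.

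The study treated nonobese diabetic (NOD) mice, in which autoimmune diabetes arises spontaneously, with nanoparticles that carry αGalCer bound to CD1d, and sorted LiNKT cells with an αGalCer/CD1d tetramer. The multiome has 1 library of nuclei pooled from 5 untreated male mice and 1 from 4 αGalCer/CD1d-NP-treated male mice, all 13 to 15 weeks old. The fragments of both libraries are in a single table, where barcodes end in 1 or in 2. No label ties an ending to a treatment, so the comparison below is of ending 2 with ending 1 and not of treated with untreated mice.

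Invariant NKT cells carry a semi-invariant T cell receptor that sees glycolipids such as αGalCer on CD1d, and they divide into subsets that make interferon-γ, interleukin-4 or interleukin-17. T regulatory type 1 (Tr1) cells are regulatory T cells without Foxp3 that make interleukin-10 and often interleukin-21 and carry inhibitory receptors such as Lag3 and Pdcd1. In the assay a transposase cuts accessible DNA, so that each end of a fragment is 1 insertion and many insertions at a promoter stand for open chromatin. Chromatin that is accessible does not have to be transcribed.

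Closed nuclei made up a larger share of ending 1. They were 2174 of 5410 nuclei there, or 40.2% (exact binomial 95% interval 38.9 to 41.5), and 704 of 5046 nuclei of ending 2, or 14.0% (13.0 to 14.9). Since the rule sets these shares, they are a description. With 1 library per ending there is no replicate, so no test between the endings was possible, and every interval given here covers counting error alone. The 2 insertions of a fragment are also not independent, which makes the intervals on insertions too narrow.

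A nucleus with few fragments is more likely to miss both windows, and the closed nuclei were shallower than the others. Their median was 8836 fragments in ending 1 and 8396.5 in ending 2, while nuclei with 3 or more window fragments had medians of 16067 and 13689. The closed share fell with depth in both endings. It was 58.0% and 27.4% at 5000 to under 7500 fragments, and 12% and 2.97% at 20000 or more. When every nucleus was thinned to 5000 fragments, 62.9% of ending 1 and 28.9% of ending 2 were without a window fragment. Ending 1 had the larger share in each of the depth classes.

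**Figure D1:**
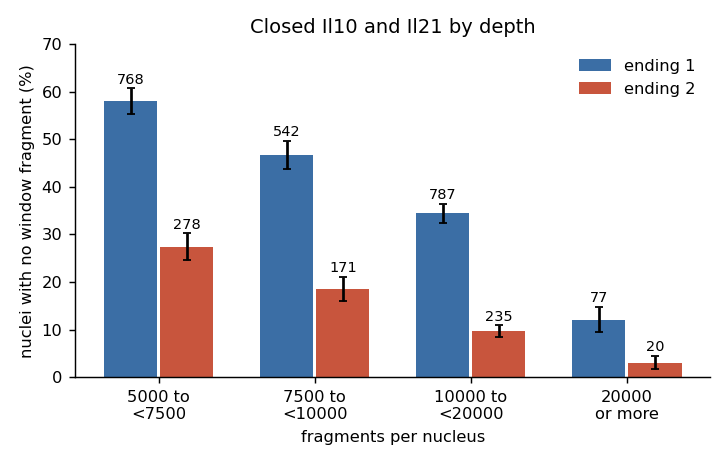
Percent of nuclei with no fragment in the Il10 or Il21 window (vertical axis) in 4 classes of fragments per nucleus (horizontal axis), for ending 1 (blue) and ending 2 (red). Error bars are exact binomial 95% intervals and the number over a bar is the count of closed nuclei; the share falls from 58.0% to 12% in ending 1 and from 27.4% to 2.97% in ending 2.

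At the border of the rule, 1417 nuclei of ending 1 and 731 of ending 2 had exactly 1 window fragment. Another 975 and 2953 nuclei had 3 or more. Of the closed nuclei, 18 and 7 had a base sequence that also occurs with the other ending, as did 42 sequences among all nuclei. A low share of insertions at promoters, below 0.5 times the median of the ending, was found in 62 closed nuclei of ending 1 and 41 of ending 2.

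The label of LiNKT cells was checked on promoters, taken as 2 kb on either side of the gene start. Values are insertions per 1000000 insertions at all promoters counted (CPM), and the log2 ratio is ending 2 over ending 1. The 11 marker promoters of T and iNKT cells, Cd3e and Zbtb16 among them, were open in closed nuclei of both endings. They summed to 1217 CPM in ending 1 and 1263 in ending 2, and 0 of 11 passed a 2-fold difference. Of all promoters tested, 0.758% were 2-fold higher in ending 2 and 0.608% lower, so 0 of 11 says little. In the 77 and 20 nuclei with 20000 or more fragments, Cd3d (-2.66) and Cd3g (-1.23) passed this difference. Cd3e, a chain of the T cell receptor complex, had 122 and 124 CPM. Zbtb16, which encodes the iNKT transcription factor PLZF, had 92.1 and 74.2 CPM, a log2 ratio of -0.31.

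Markers of other cells that a liver sort could hold had lower sums, over lists of other lengths. Single members did not all lie lower, since Pecam1 of the endothelial list had 101 and 73.3 CPM and Klf1 of the erythroid list 94.1 and 78.3. Hepatocyte markers summed to 12.4 and 7.51 CPM, those of conventional CD8 T cells to 4.38 and 7.51, and those of B cells to 38.1 and 46.1. In the hepatocyte list, Hnf4a was at 0 in ending 2, as was Tek in the endothelial list, whose sums were 108 and 78.0. Erythroid markers summed to 117 and 99.0, and macrophage markers to 74.4 and 121. Of 2 tested macrophage promoters Cd68 was past the fold (1.20), beside 0.758% of all promoters higher. In gene bodies, of which 4.21% were higher and 0.624% lower in all, single markers passed the fold too. Csf1r of the macrophage list had 114 and 150 insertions (2.02), 1 of 4 tested, and Stab2 of the endothelial list 265 and 266 (1.63), 1 of 4 tested. Cd79a of the B cell list was lower at 277 and 40 (-1.17), 1 of 5 tested. The part of other cells in the ratios below was not tested. At promoters, 3 of the 4 NK cell markers were higher past the fold, beside 0.758% of all promoters. The 4 summed to 35.9 CPM in ending 1 and 101 in ending 2. Ncr1 and Eomes are on this list and also differ below. Without the nuclei that had an insertion at either promoter, 2066 and 577 closed nuclei were left, in which Klre1 had a log2 ratio of 1.13.

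Promoters of closed nuclei were alike in both endings for most genes. Of 20340 protein-coding autosomal genes, 11353 had at least 200 insertions over both endings. At least 2-fold more insertions in ending 2 were found at 86 of them (0.758%) and at least 2-fold fewer at 69 (0.608%), with a median log2 ratio of -0.01. The minimum counts both endings together, and ending 1 had more insertions in all. A promoter high in a single ending can pass through that ending alone, which partly sets these shares and the list counts below. In nuclei with 3 or more window fragments, 13083 promoters were tested, of which 519 (3.97%) were higher in ending 2 and 137 (1.05%) lower. More insertions were available there, so the counts are set side by side and not compared. Without closed nuclei that had an insertion at the Ncr1 or Eomes promoter, 68 promoters were higher and 62 lower.

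**Figure D2:**
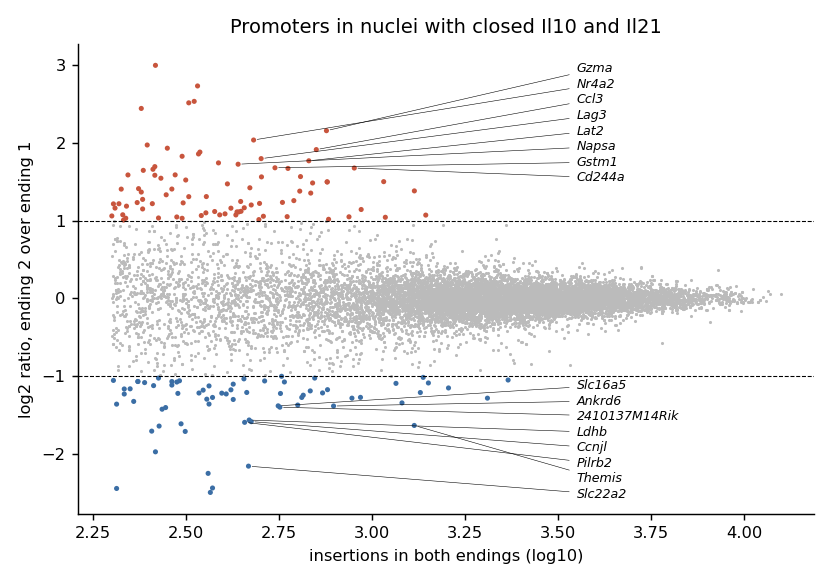
Log2 ratio of promoter insertions in CPM, ending 2 over ending 1 (vertical axis), against the log10 of insertions in both endings (horizontal axis), for 11353 promoters in closed nuclei. Dashed lines mark the 2-fold difference, red and blue points lie past it (86 higher, 69 lower), and the promoters named by the rule are labelled, from Gzma at 2.15 to Slc22a2 at -2.16.

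The promoter sequences of 3 genes that were higher and 2 that were lower in ending 2 are shown as the starts of a granzyme, a chemokine, an NK receptor, a T cell signalling gene and a cytokine receptor gene described below. No test ties a difference to these letters. They run from 250 bases before to 50 after the RefSeq start (GRCm38.p6), and all 5 genes had an entry. Capitals mark, on either strand, the letters TGANTCA (AP-1), TGTGGT (RUNX), TCACACC (T-box) and GAAANNGAA (IRF).
Gzma, chr13:113100932-113101231, minus strand: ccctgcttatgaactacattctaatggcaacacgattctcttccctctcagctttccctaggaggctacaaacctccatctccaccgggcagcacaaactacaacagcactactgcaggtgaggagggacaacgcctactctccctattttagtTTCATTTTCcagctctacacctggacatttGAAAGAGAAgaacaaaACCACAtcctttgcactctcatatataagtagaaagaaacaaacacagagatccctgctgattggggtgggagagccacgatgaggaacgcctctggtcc
Ccl3, chr11:83649329-83649628, minus strand: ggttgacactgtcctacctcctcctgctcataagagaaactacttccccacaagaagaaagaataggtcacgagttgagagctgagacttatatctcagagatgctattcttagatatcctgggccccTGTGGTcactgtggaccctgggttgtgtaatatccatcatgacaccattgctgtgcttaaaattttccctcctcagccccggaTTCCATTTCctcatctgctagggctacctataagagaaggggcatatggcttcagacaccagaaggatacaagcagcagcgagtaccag
Cd244a, chr1:171558943-171559242, plus strand: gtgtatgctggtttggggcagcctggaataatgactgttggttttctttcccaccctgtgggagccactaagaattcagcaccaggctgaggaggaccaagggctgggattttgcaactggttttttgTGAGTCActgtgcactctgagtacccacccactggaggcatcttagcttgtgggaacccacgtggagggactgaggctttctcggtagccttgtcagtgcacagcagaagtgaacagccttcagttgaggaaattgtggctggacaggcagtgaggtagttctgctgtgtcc
Themis, chr10:28668110-28668409, plus strand: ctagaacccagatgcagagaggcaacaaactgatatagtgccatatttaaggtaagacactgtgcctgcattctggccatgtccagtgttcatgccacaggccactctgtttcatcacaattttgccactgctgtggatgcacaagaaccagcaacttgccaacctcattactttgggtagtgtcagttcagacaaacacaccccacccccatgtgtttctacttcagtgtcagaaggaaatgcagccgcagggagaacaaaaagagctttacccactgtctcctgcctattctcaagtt
Il17rb, chr14:30008847-30009146, minus strand: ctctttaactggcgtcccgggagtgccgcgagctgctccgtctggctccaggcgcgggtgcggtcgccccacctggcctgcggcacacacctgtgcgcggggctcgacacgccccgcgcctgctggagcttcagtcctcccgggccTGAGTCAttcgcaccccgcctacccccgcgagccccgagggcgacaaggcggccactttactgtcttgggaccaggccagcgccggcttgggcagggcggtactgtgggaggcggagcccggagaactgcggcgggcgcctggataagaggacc

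Of 32851 RefSeq promoters of this length, 7.81% held the AP-1 letters, 16.8% the RUNX letters, 3.98% the T-box letters and 8.56% the IRF letters. The Gzma promoter had 3 matches and that of Themis 0. These 300 bases held 119 and 99 of the 319 and 436 insertions counted at Gzma, and 97 and 4 of the 349 and 19 at Il17rb. The log2 ratio within them alone was scaled by all autosomal insertions, and not by insertions at promoters as for the promoter ratios. In closed nuclei it was 1.37 at Gzma, 1.88 at Ccl3, 2.00 at Cd244a, -1.96 at Themis and -2.96 at Il17rb.

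Genes of killing were among those with more promoter insertions in ending 2. Gzma, which encodes the protease granzyme A, had 319 insertions in ending 1 and 436 in ending 2, or 14.7 and 65.5 CPM (log2 ratio 2.15, 95% interval 1.94 to 2.37). After thinning to 5000 fragments, 3.50% of closed nuclei of ending 1 and 13.4% of ending 2 had an insertion there. Gzmm, another granzyme, had 7.38 and 19.5 CPM (1.40). Of 9 tested promoters of cytotoxic effectors these 2 passed the fold and 0 were lower, beside 0.758% and 0.608% of all promoters, with a list median of 0.39 beside -0.01 over all promoters. Without nuclei with an insertion at Ncr1 or Eomes the list median was 0.25, and Gzma was at 2.16 and Ccl3 at 1.69. Gzmb, at 66.6 and 128 CPM (0.95), lay just below the fold. Chemokines that draw in leukocytes gave 2 of 5 higher past the fold, beside 0.758% of all promoters. Ccl3 had 15.2 and 57.1 CPM (1.91) and Ccl4 33.3 and 86.8 (1.38). The window of Ccl3 overlaps that of Rpl9-ps1, which had too few insertions to be tested.

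Receptors found on NK cells were read next. Of 12 tested promoters 4 were past the fold, all higher in ending 2, beside 0.758% of all promoters, and the list median was 0.88, or 0.69 without nuclei with an insertion at Ncr1 or Eomes. Ncr1, the activating receptor NKp46, had 90 insertions in ending 1 and 150 in ending 2, or 4.15 and 22.5 CPM (2.44, 2.05 to 2.83). Cd244a, the receptor 2B4, had 20.9 and 66.7 CPM (1.68). Klre1 had 16.4 and 39.2 CPM (1.26) and Klra9 10.5 and 22.7 (1.12). Cd226, an activating receptor, went the other way without passing the fold, from 10.7 to 5.41 CPM (-0.99). Of 10 tested gene bodies of this list 0 passed the fold, with a median of 0.57, beside 4.21% of all bodies higher. Some members of the Klr families, such as those of Klra, are similar in sequence, so reads may be split among them.

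Inhibitory receptors, which restrain T cells, gave 3 of 10 promoters higher and 1 lower, beside 0.758% and 0.608% of all promoters. Lag3 had 244 insertions in ending 1 and 260 in ending 2, or 11.3 and 39.1 CPM (1.80, 1.54 to 2.05). Havcr2, the receptor TIM-3, had 7.75 and 22.2 CPM (1.52), and Cd244a is on this list too. Btla, also an inhibitory receptor, had 55.0 and 23.7 CPM (-1.21). The list median was 0.51.

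A Tr1-like list was taken from the genes that the study named as raised in treated LiNKT cells, Il10 and Il21 left out. Of its 11 promoters, 8 had enough insertions. This list was chosen on samples of the same study and is no independent evidence of its direction. Lag3 and Itga4, an integrin chain that had 39.1 and 82.2 CPM (1.07), were higher past the fold, beside 0.758% of all promoters. Il4, the type 2 cytokine, was lower at 36.2 and 14.9 CPM (-1.28), beside 0.608% of all promoters. Pdcd1 had a log2 ratio of 0.59, Tigit 0.42, Izumo1r 0.10, Nfia 0.07 and Maf -0.25. Ctla4, Tnfrsf4 and Vdr had too few insertions. Over gene bodies the list had 2 of 10 tested higher, 0 lower and a median of 0.55, beside 4.21% of all bodies higher and 0.624% lower. The body of Nfia, level at its promoter, had 1841 and 1264 insertions (1.08), that of Lag3 was at 1.01 and that of Il4 at -0.40. At promoters the median of the list was 0.26 in closed nuclei and 0.97 in nuclei with 3 or more window fragments. Each median is over the members with enough insertions in that class, which can be different members. Over all promoters tested the medians were -0.01 and -0.002. Fragments over promoters and bodies of the list were also counted per nucleus, thinned to 5000 fragments. Closed nuclei had a mean of 2.41 list fragments in ending 1 and 3.07 in ending 2, while nuclei with 3 or more window fragments had 2.75 and 5.78. The housekeeping list, counted in the same way, gave 6.53 and 6.39 in closed nuclei. A higher mean in ending 2 was not particular to the Tr1-like list. NK receptors gave 2.34 and 3.08 in closed nuclei, cytotoxic effectors 2.69 and 3.53, and chemokines 1.18 and 1.58.

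Transcription factors are read beside the 0.758% of all promoters that were higher and the 0.608% that were lower. Of 12 factors tied to Tr1 cells, Eomes alone passed the fold at its promoter, with 162 and 183 insertions or 7.47 and 27.5 CPM (1.88), and Tox2 was next at 0.95. Of 11 bodies of these factors that were tested, Nfil3 alone was past the fold, with 216 and 195 insertions (1.48, 1.19 to 1.76). Of all bodies, 4.21% were higher and 0.624% lower. Of 13 factors of the iNKT lineage 0 passed the fold at the promoter. Gata3, which directs the interleukin-4 subset, had 44.4 and 29.7 CPM (-0.58). Of 15 immediate early genes, which receptor signals switch on, only Nr4a2 passed, with 213 and 268 insertions or 9.82 and 40.3 CPM (2.04, 1.77 to 2.30).

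Lower promoters in ending 2 included cytokine genes and a cytokine receptor. Il5, a type 2 cytokine, had 244 and 24 insertions, or 11.3 and 3.61 CPM (-1.64), and with Il4 made 2 of 9 tested cytokines, beside 0.608% of all promoters. Il17rb, the receptor for interleukin-25, had 349 and 19 insertions, or 16.1 and 2.85 CPM (-2.50, -3.24 to -1.83), and was the only one of 14 cytokine receptors past the fold, beside the same 0.608%. The neighbouring Chdh, named after its values were seen, had a log2 ratio of -2.44 and may share its insertions. Themis, which tunes T cell receptor signals during selection, had 1183 and 117 insertions, or 54.5 and 17.6 CPM (-1.63, -1.92 to -1.36). Il5, Il17rb and Themis reached the minimum of 200 insertions through ending 1 alone, the ending in which they were higher. After thinning, 11.5% of closed nuclei of ending 1 and 4.4% of ending 2 had an insertion at Themis.

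The other promoters named by the rule were Lat2 (1.77), Napsa (1.72) and Gstm1 (1.68) among the higher ones. Slc22a2 (-2.16), Pilrb2 (-1.59), Ccnjl (-1.58), Ldhb (-1.56), 2410137M14Rik (-1.40), Ankrd6 (-1.38) and Slc16a5 (-1.38) were lower. Of 15 chemokine and homing receptors, Cx3cr1 (1.15) and Itga4 were higher, beside 0.758% of all promoters. At the overall shares of 0.758% higher and 0.608% lower, few promoters of lists this short would pass the fold. No promoter passed it among 17 genes of T cell receptor signalling, 16 of the cell cycle and 12 of the type I interferon response. The same held for 10 naive-like and follicular helper genes, 9 costimulatory receptors, 7 Rgs genes and 13 housekeeping genes. Within all these lists Cd226, a costimulatory receptor too, was at -0.99, Rgs16 at 0.99, Slamf6 at -0.78 and Oasl2 at -0.71.

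**Figure D3:**
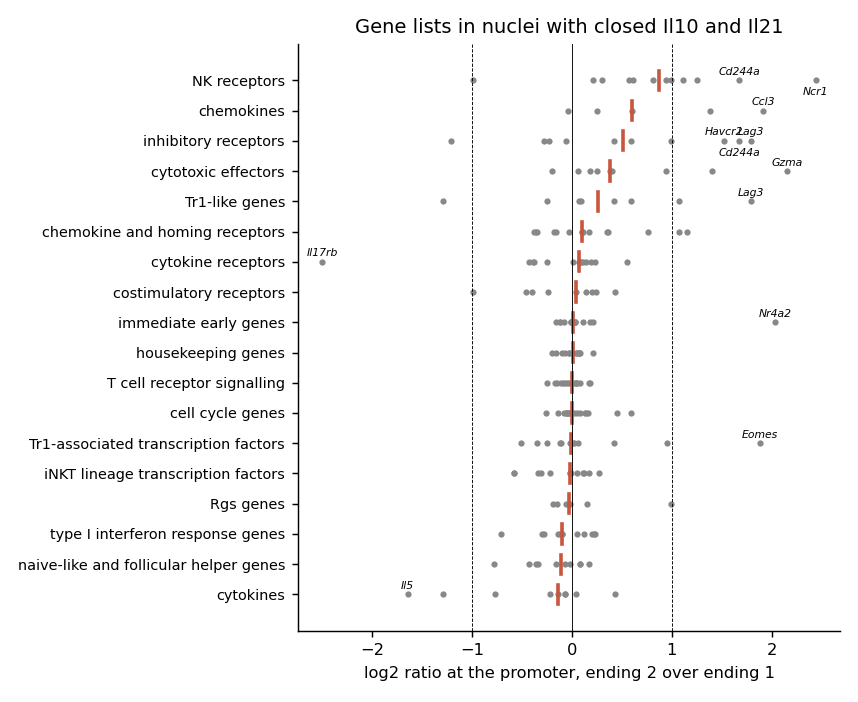
Log2 ratio at the promoter, ending 2 over ending 1 (horizontal axis), of each tested member (grey points) of 18 gene lists in closed nuclei, with the list median as a red bar and the 2-fold difference as dashed lines. NK receptors have the highest median (0.88) and cytokines the lowest (-0.14), and members at or past 1.5 on either side are named.

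Part of these differences was of like size in nuclei with window fragments, and part was not. Of the 86 promoters higher in closed nuclei, 41 (47.7%) were also past the fold in nuclei with 3 or more window fragments. Those 41 were 33.1% of the 124 promoters that were higher there and could be tested in closed nuclei. Of the 69 lower ones, 40 (58.0%) were also past the fold. Of all promoters tested in nuclei with 3 or more window fragments, 3.97% were higher and 1.05% lower. The nuclei of each class are different nuclei of the same 2 libraries.

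Single genes ran in both directions with the number of window fragments. Gzma had log2 ratios of 2.15 with 0 window fragments, 2.35 with 1, 1.87 with 2 and 1.41 with 3 or more. Cd244a went from 1.68 through 1.35 and 1.14 to 0.41, and Ccl3 from 1.91 through 2.01 and 1.58 to 0.84. Lag3 went the other way, from 1.80 through 1.82 and 2.04 to 2.79. Il4 was at -1.28 in closed nuclei and 0.15 with 3 or more fragments, and Btla at -1.21 and -0.17. Themis stayed within -1.63 and -1.27 in all 4 classes. At the border of the rule, between 0 and 1 window fragments, Nr4a2 went from 2.04 to 1.65, Ldhb from -1.56 to -0.84 and Ankrd6 from -1.38 to -0.95.

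**Figure D4:**
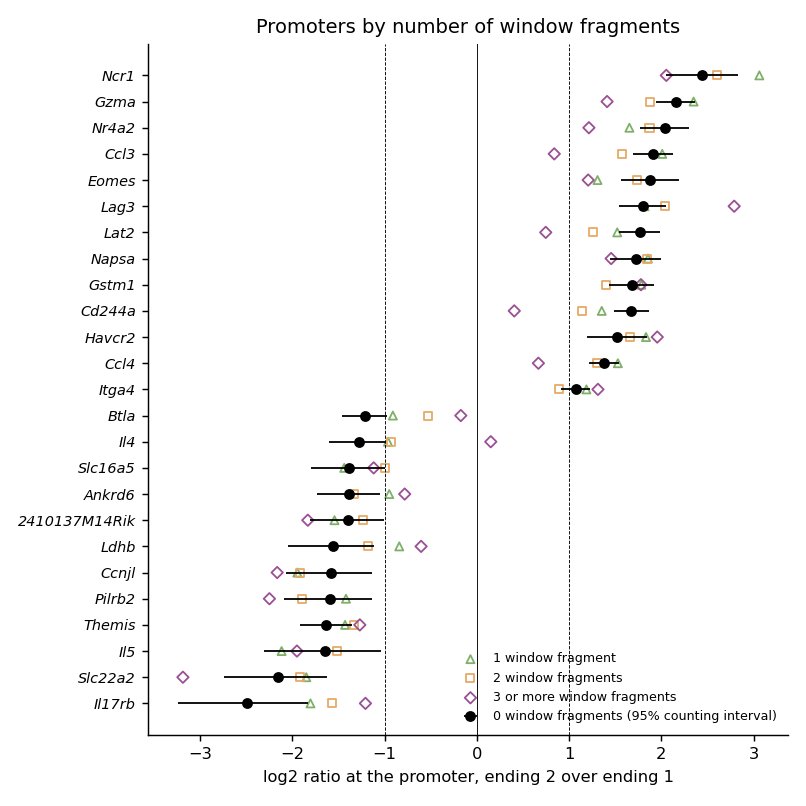
Log2 ratio at the promoter, ending 2 over ending 1 (horizontal axis), of named genes (rows) in nuclei with 0 (black, with 95% counting interval), 1, 2 and 3 or more window fragments (open symbols). Lag3 is at 1.80 with 0 fragments and 2.79 with 3 or more, while Cd244a goes from 1.68 to 0.41.

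The neighbours of the windows were read as a description. The promoter of Mapkapk2, next to the Il10 window, had a log2 ratio of 0.49 in closed nuclei, that of Il2, next to the Il21 window, had 0.43 and Bbs12 had 0.22. Others nearby were at -0.28 (Eif2d, -0.50 to -0.07), 0.04 (Dyrk3) and -0.02 (4932438A13Rik). Il10 and Il21 themselves had 0 insertions in closed nuclei by the rule. With 1 window fragment, the Il10 promoter had 92 and 104 insertions.

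Gene bodies outside the promoters gave 459 higher (4.21%) and 68 lower (0.624%) of 10905 tested. The count of higher bodies fell to 181 without the nuclei of low promoter share, and to 192 in nuclei with an insertion at a Cd3d, Cd3e or Cd3g promoter. In nuclei with 3 or more window fragments, 327 (2.29%) of 14309 bodies were higher and 389 (2.72%) lower, and 55 of the 459 (12%) were past the fold there too. Plek, which encodes pleckstrin, a substrate of protein kinase C, had 416 and 856 insertions in its body, or 26.1 and 165 CPM of insertions in all bodies (2.66, 2.49 to 2.84), and 2.43 to 2.68 in the other classes. Gm10974 followed at 2.45. Galnt18 (2.27), Ofcc1 (2.14) and Col4a3 (2.09) were high in closed nuclei and at -0.30, -0.79 and -0.13 with 3 or more window fragments. Without the nuclei of low promoter share these 3 were at 1.26, 0.66 and 0.33, and in nuclei with an insertion at a Cd3 promoter at 1.26, 0.055 and -0.070. AA986860 (-1.97), Adh1 (-1.89), Dydc2 (-1.72), Skor2 (-1.65) and Efcab3 (-1.61) were the lowest bodies named by the rule. Efcab3 was at -0.034 in nuclei with 20000 or more fragments.

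Away from promoters, 46114 bins of 500 bp had at least 100 insertions. Of these 1526 (3.31%) were higher in ending 2 and 2549 (5.53%) lower. In all other nuclei of the same libraries, 1448 of the 1526 were above 0 and 715 at least 2-fold. Of the 2549 lower bins, 2370 were below 0 there and 1442 at least 2-fold. These nuclei are no replicate, since a difference between the libraries would recur in them. The same shares over all bins were not taken. The highest named bins lay in or near 2900026A02Rik (3.06 and 2.62), Setbp1 (2.77), Adamts14 (2.63) and Ccnl1 (2.59). The lowest were nearest Psd3 (-3.05), Efcab3 (-2.93), Eef2kmt (-2.85), Iqgap2 (-2.73) and Galnt12 (-2.69).

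The letters of 10 transcription factor motifs were searched in these bins. TGANTCA (AP-1) was in 25.9% of higher bins, 14.9% of lower bins and 16.3% of all bins on either strand. TGTGGT (RUNX) was in 54.6%, 44.6% and 41.9%, and TCACACC (T-box) in 14.2%, 9.61% and 9.31%. CTTTGA (TCF/LEF) was in 29.6% of higher and 37.0% of lower bins, beside 30.8% of all. AGGTCA (nuclear receptors) was in 36.4% of higher, 28.4% of lower and 29.4% of all bins. GGGCGG (KLF/SP) was in 14.4%, 10.8% and 17.0%, and GCGTGGG (EGR) in 4.33%, 2.04% and 4.13%. GGAAA (NFAT) was in 79.7%, 85.1% and 81.4%, GGGANTTCC (NF-kB) in 2.36%, 2.47% and 2.27%, and GAAANNGAA (IRF) in 17.3%, 16.0% and 16.7%. The median GC content was 49% in higher, 47% in lower and 48.4% in all bins. A match is a description of letters and not a site.

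Regions whose CpG methylation differs between untreated and treated mice were read in the same nuclei. In 1937 regions with lower methylation in treated mice the mean fraction over CpG sites was 0.764 untreated and 0.402 treated, and in 885 regions with higher methylation it was 0.281 and 0.577. These regions come from LiNKT cells of other mice, of which the study's methods call the untreated ones female and older than the mice of the multiome, give the treated ones no sex and put them at a younger age than the untreated. They come with 1 value per group and no depth in the table. They bear no label of an ending.

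In closed nuclei, regions with lower methylation in treated mice held 2158 CPM of all autosomal insertions in ending 1 and 3039 in ending 2, a log2 ratio of 0.49. With 3 or more window fragments it was 1.55, from 2312 to 6768. Regions with higher methylation had 2917 and 2275 CPM in closed nuclei (-0.36) and a log2 ratio of -0.94 with 3 or more. Of 493 regions of the first kind with at least 50 insertions, 149 were 2-fold higher (30.2%) and 14 lower (2.84%). Of 639 of the second kind, 14 were higher (2.19%) and 128 lower (20%). The minimum counts both endings together. A region high in a single ending can thus pass through that ending alone, which partly sets these shares. Of the bins outside promoters, 3.31% were higher and 5.53% lower at a minimum of 100 insertions. Bins were scaled by insertions in the tested bins, so their shares are not like for like.

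The ratio in the first kind of region varied with depth. It was 0.72 at 5000 to under 7500 fragments, 0.52 at 7500 to under 10000, 0.40 at 10000 to under 20000 and 0.04 at 20000 or more, where 77 and 20 nuclei were left. The second kind was at -0.39, -0.33, -0.29 and -0.94 in the same depth classes, and at -0.54 with windows widened by 50 kb. In the first kind the ratio with widened windows was 0.40, and without nuclei with an insertion at the Ncr1 or Eomes promoter it was 0.45. Per nucleus, the median was 2105 CPM in ending 1 and 3005 in ending 2.

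**Figure D5:**
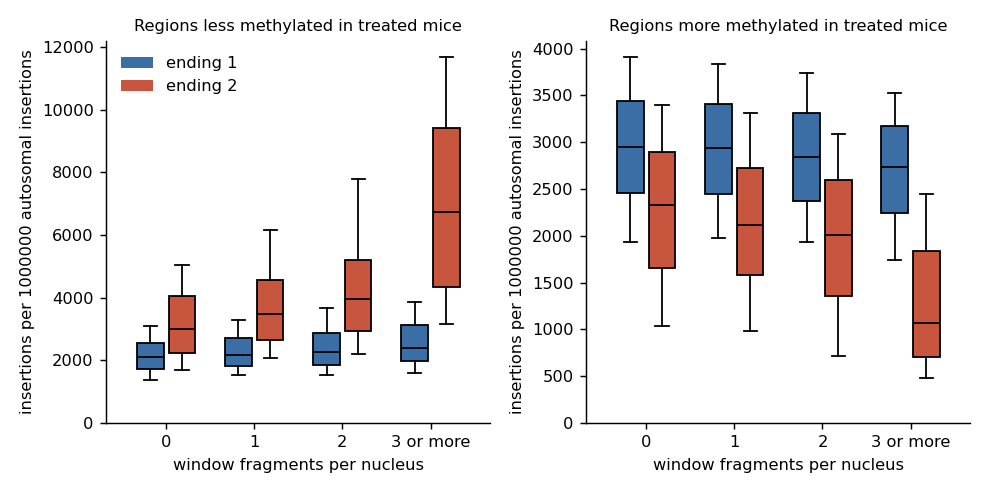
Insertions per 1000000 autosomal insertions of a nucleus (vertical axes) in regions with lower (left) and higher (right) methylation in treated mice, by number of window fragments (horizontal axes), for ending 1 (blue) and ending 2 (red). Boxes span the quartiles with the median as a line and whiskers the 10th to 90th percentile over nuclei, which are not replicates; on the left the medians of closed nuclei are 2105 and 3005, and with 3 or more fragments 2403 and 6734.

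Single regions gave the largest values. The region nearest Med13l (chr5:118404312-118404812, 0.734 untreated and 0.315 treated) had 0 insertions in 2174 closed nuclei of ending 1 and 88 insertions in 34 of 704 nuclei of ending 2. The exact 95% interval of the log2 ratio began at 6.18 and had no upper end. This region passed the minimum of insertions through ending 2 alone. In the other direction, the region nearest Adamts7 had 51 and 0 insertions, and methylation of 0.325 untreated and 0.685 treated. It passed the minimum through ending 1 alone. A region 3.91 kb before the Gzma start had 54 and 93 insertions (2.42), and methylation of 0.651 and 0.292. The region nearest Il4, in Kif3a and 20.3 kb from the Il4 start, had 49 and 1 insertions (-3.98), found in 28 and 1 nuclei, and methylation of 0.421 and 0.893. It had just the minimum of 50 insertions and reached it almost through ending 1 alone. It does not stand for the Il4 locus, since the study lists Il4 among genes whose body lost methylation with treatment. The Gzma and Il4 regions are shown because they lie near genes whose promoters differed in the same direction. They were picked for that direction, so it is no independent evidence. Each CpG is in capitals, on the plus strand of GRCm38. The Il4 region is given by its first 300 bases.
Gzma region, chr13:113104793-113104996: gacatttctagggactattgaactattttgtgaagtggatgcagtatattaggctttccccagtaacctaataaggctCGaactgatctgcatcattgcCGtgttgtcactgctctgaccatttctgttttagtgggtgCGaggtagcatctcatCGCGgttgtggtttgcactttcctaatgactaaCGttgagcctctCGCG
Il4 region, chr11:53598153-53598452: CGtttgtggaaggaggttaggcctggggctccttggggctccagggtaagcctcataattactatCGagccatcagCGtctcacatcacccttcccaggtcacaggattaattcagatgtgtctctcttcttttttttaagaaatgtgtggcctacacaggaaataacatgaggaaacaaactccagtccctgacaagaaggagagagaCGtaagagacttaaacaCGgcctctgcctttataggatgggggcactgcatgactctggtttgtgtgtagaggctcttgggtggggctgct

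RNA of the named genes was read in SmartSeq2 cells whose groups are labelled, keeping cells with 0 reads on Il10 and on Il21. Values are given for some of these genes only, and Gzmm, Havcr2, Itga4 and Il17rb are among those left out. The count tables held 284 untreated and 282 treated cells, of which the 273 and 251 that the study's own list of cells gives to the same group were used. Cells with 0 reads on both genes were 273 of 273 untreated and 204 of 251 treated, other cells than the nuclei above, with 1 sample per group and no test. Markers of other cells also differed between these groups. Lyz2, of the macrophage list, had 0 and 2091 CPM, with a read in 0 and 11 cells, and Csf1r had a read in 1 and 9 cells. Of the 8 hepatocyte markers, 7 had reads in treated cells, Alb in 2 cells at 49.7 CPM, and 0 of the 8 had reads in untreated cells. Hnf4a was at 0 in both groups. The part of such RNA in the values below was not tested.

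Gzma had 143 CPM in untreated and 4829 in treated cells, with a read in 11 and 98 cells. Ccl3 had 34.8 and 187, Ccl4 103 and 599, and Cd244a 105 and 374.

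Ncr1 had 191 CPM in untreated and 941 in treated cells, and Klre1 306 and 840. Lag3 had 0 counts in untreated cells and 340.5 CPM in treated ones, from 27 cells. Themis had 122 and 7.38, with a read in 27 and 3 cells, and Btla 26.7 and 6.0. Nr4a2 was low in both, at 9.02 and 17.9, and Il4 at 31.6 and 25.7. Eomes, whose promoter differed in closed nuclei, had 0 and 4 counts, and Il5 had 0 in both.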

How the data were processed

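The chromatin values are counts of fragments as deposited by the authors, who trimmed reads, aligned them to GRCm38 with BWA-MEM and removed duplicates in Cell Ranger ARC; both libraries share a table. No shift for the transposase was added here. The methylation fraction values were deposited by the authors after mapping with BSMAP; regions were called with metilene, and the authors' differences and q-values in that table were not used. SmartSeq2 counts are raw counts deposited by the authors after alignment with STAR. The submitters' processing notes also name Cell Ranger 6, Seurat and Signac.

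Fragments were counted per barcode with Python 3.11.15, NumPy 2.4.6, pandas 2.3.3 and SciPy 1.17.1. Genes are from GENCODE M21, promoters reach 2 kb to either side of the start, and an insertion in overlapping promoters counts for each. Bodies leave out promoters. Totals of closed nuclei were 21583974 and 6931578 fragments. Ratios have 95% intervals of the exact binomial split, and past the fold means at least 2-fold at 200 or more insertions (100 for bins, 50 for methylated regions). On data simulated with counting error alone, recovery of known folds by the comparison was tested, with the outcome not given here. No doublet caller was run; an alternative left out nuclei above 3 times the median of fragments.

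The nuclei, the 18 gene lists and the 8 marker lists were chosen with earlier results of these data known. Named were the 8 promoters and 5 gene bodies furthest in each direction with at least 400 insertions, the 5 bins in each direction with at least 200, and in each list the members past the fold and the 2 furthest, of which those below the fold are given in part. In all, 15 planned and 2 added alternatives were run. Bulk ATAC-seq, ChIP-seq and 10X RNA samples were not analysed here. SmartSeq2 cells that are not in the study's own list of cells were left out. Features are on the 19 autosomes, so 4 listed genes on X (Cd40lg, Cxcr3, Il2rg and Alas2) were not counted. One further gene of a list is not reported here.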

Additional observations from a re-analysis of the deposited data

How the results depend on the processing

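The counts past the fold depend on depth and on the minimum of insertions, and some named ratios turned or fell short of the fold. Promoters higher in ending 2 (86) numbered 48 at 10000 or more fragments, 14 at 20000 or more, 44 after thinning, 229 when closed was set by the thinned fragments, 14 with windows wider by 50 kb, 1093 at 20 or more insertions, 50 with promoters of 500 bp and 234 at a fold of 1.5. Promoters lower in ending 2 (69) numbered 29 at 10000 or more fragments, 29 with wider windows, 397 at 20 or more insertions and 249 at a fold of 1.5. Higher bodies (459) numbered 252 at 20000 or more fragments, 231 after thinning, 243 with closed set by thinned fragments, 181 without nuclei of low promoter share, 1353 at 20 or more insertions and 1239 at a fold of 1.5. Lower bodies (68) numbered 402 at 20000 or more fragments, 119 with wider windows, 415 at 20 or more insertions and 475 at a fold of 1.5. At 20000 or more fragments 77 and 20 nuclei were left. Of the 2 alternatives chosen after seeing the data, nuclei with an insertion at a Cd3d, Cd3e or Cd3g promoter gave 54 higher promoters, 192 higher bodies and 104 lower bodies. Thinning moved the closed share to 62.88% and 28.91%. The sign turned at the promoters of Gstm1 (-0.61) and Il5 (0.98) at 20000 or more fragments and of Cx3cr1 (-0.80) with 500 bp promoters, and at the body of Col4a3 (-0.070) in nuclei with a Cd3 insertion. Below the fold in the main comparison, Gata3 (0.027) and Zbtb16 (0.048) also turned at 20000 or more fragments, and Cd3d, Cd3e and Cd3g turned under at least 1 alternative. At 20000 or more fragments the T cell markers Cd3d (-2.66, 141 and 4 insertions) and Cd3g (-1.23, 118 and 9) were past the fold, and Cd3e was at 0.55. Over the alternatives, ratios came nearest to 0 at -0.95 for Themis, -0.85 for Il17rb, -0.84 for Il4, -0.57 for Btla, -0.42 for 2410137M14Rik, -0.74 for Ankrd6, -0.77 for Ldhb, -0.84 for Slc22a2, 0.44 for Itga4, 0.57 for Napsa, 0.65 for Ccl4, 0.77 for Klra9, 0.84 for Havcr2 and 0.95 for Klre1, all short of the fold. The cause was not tested. Of the other log2 ratios, 781 moved by no more than their counting interval and 171 by more, as did 415 and 124 list medians against a shift of 0.1. No paired analysis was possible because each ending is 1 library. The design has no replicate, so a difference between endings cannot be told apart from a difference between libraries.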

Other observations

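Bins past the fold lay in groups by nearest gene. Among higher bins 11 were nearest Ptpn5, 9 Lrrc27 and 8 each 2900026A02Rik, Myo1e and Prex1. Among lower bins 15 were nearest Ext1, 14 Ice2 and 13 each 3110018I06Rik and Eef2kmt. Id2 was the nearest gene of 6 higher and 7 lower bins. Promoters with under 400 insertions also passed the fold, and some are named here after their values were seen: Cdk14 (76 and 186 insertions, log2 ratio 2.99), Abr (112 and 228, 2.73), Klf12 (120 and 213, 2.53) and Syk (130 and 152, 1.93). Syk, a kinase of B and NK cell receptors, was at 0.48 in nuclei with 3 or more window fragments, and Abr at 2.53.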
